A study of Arabidopsis thaliana with 24 samples.

Results

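Subtilisin-like proteases, or subtilases, are serine proteases named after the bacterial enzyme subtilisin. In plants most of them are made as inactive precursors, enter the secretory pathway and act in the cell wall space, where they cut peptide hormone precursors and wall-modifying enzymes. Their transcripts are ordinary capped and polyadenylated mRNAs. Loss of the 5′ cap opens such an mRNA to decay from its 5′ end, so decapped copies can be compared with the total pool of the same transcript.

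The genes described here are those of Arabidopsis thaliana whose RefSeq symbol starts with SBT, a number and a dot. The rule gave 7 genes, and each had 1 probe among the 13746 genes with a probe on the array. They were SBT3.3 (AT1G32960) and SBT3.5 (AT1G32940) on chromosome 1, SBT3.12 (AT4G21326) on chromosome 4, and SBT1.3 (AT5G51750), SBT4.12 (AT5G59090), SBT4.13 (AT5G59120) and SBT5.4 (AT5G59810) on chromosome 5. The rule goes by symbol, so it leaves out subtilases with other symbols, which form a separate list below. This group was chosen by the mean ratios of SBT1.3 and SBT3.5, which were among the highest of all named genes. The mean ratios are therefore given as a description and without a test. The array measured 5 of the 7 genes on all days, against 10608 of all 13746 genes.

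All tissue came from 35S:AP1-GR ap1 cal plants, which lack the floral regulators AP1 and CAL and carry AP1 joined to a steroid-binding receptor domain. The 35S promoter drives the fusion gene broadly, and 1 µM dexamethasone activates the protein, so that masses of inflorescence-like meristems turn into young flowers at about the same time. Inflorescence surface tissue of about 25 pooled plants was taken on the day of activation, called day 0, and daily until day 5. There were 4 independent sets of samples. All groups carry the fusion gene and both mutations, and the labels give the dexamethasone treatment for day 0 too. Each of the 24 arrays compared decapped mRNA with total polyadenylated mRNA of 1 sample, with the dyes Cy3 and Cy5 exchanged between sets 1 and 2 and sets 3 and 4 and from each day to the next.

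Every value is a log ratio, likely log2 and likely decapped over total mRNA. Neither the log base nor the direction nor the authors' centring is given in the sources used here, and if the ratio runs the other way each "higher" below reads "lower". The median of all 10608 tested genes was -0.16, and centring each array moved the values up by about that amount. The median correlation of an array with the other arrays lay between 0.379 and 0.736, and it was under 0.5 for 3 arrays, those of set 1 on days 1, 2 and 3. The array of set 1 on day 0 had the lowest weight (0.242) when limma weighted the arrays. A ratio holds no level of expression, so the tissue could not be checked by marker levels. Of 8 meristem and young flower genes 6, among them UFO, CLV3 and LOB, had a measured ratio.

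Of the 5 SBT genes measured on all days, SBT1.3 had the highest mean ratio over all 24 arrays, though not without set 1. On day 0 its ratios were 0.83, 2.81, 2.20 and 2.73 in sets 1 to 4, and 4.03, 1.18, 0.85 and 3.45 on day 1. Day 2 gave 3.01, 1.66, 1.14 and 3.57, and day 3 gave 5.46, 1.84, 0.87 and 2.48. All of these arrays lay above 0, and set 3 was the lowest on days 1, 2 and 3. Day 4 gave 2.99, 1.11, 1.45 and 3.5, and day 5 gave 3.18, 3.52, 0.39 and 2.04. Set 3 was again the lowest on day 5, and the ranges of the 6 days overlapped. The 24 ratios ran from 0.39 to 5.46 with a median of 2.34 and a mean of 2.35 ± 1.26 (SD, n = 24). Only 16 of the 10608 genes had a higher mean.

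SBT3.5 is reported in Arabidopsis roots to process the pectin methylesterase PME17, an enzyme that modifies cell wall pectin. Its ratios were 0.01, 2.63, 2.46 and 3.22 in sets 1 to 4 on day 0, and 1.18, 2.11, 3.84 and 1.77 on day 1. Day 2 gave 1.41, 0.97, 3.19 and 1.32, and day 3 gave 0.97, 2.23, 2.21 and 1.57. Set 1 was the lowest on days 0, 1 and 3, and set 3 the highest on days 1 and 2. Day 4 gave 1.60, 1.77, 2.97 and 0.97, and day 5 gave 2.94, 2.13, 3.64 and 1.46. Set 3 was the highest on these days too, and the ranges of all days overlapped. All 24 lay above 0, the lowest (0.01) only just, with a median of 1.94 and a mean of 2.02 ± 0.95 (SD, n = 24), and 53 genes had a higher mean.

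SBT3.3, which has been linked to immune priming in Arabidopsis, had ratios nearer to 0. They were -0.17, 0.13, 0.25 and 0.19 in sets 1 to 4 on day 0, and 0.63, 1.64, -0.74 and 1.15 on day 1. Day 2 gave -0.19, 0.61, 0.08 and 1.02, and day 3 gave 0.70, 2.04, -0.97 and 0.45. The 4 sets were close together on day 0 and spread out afterwards, with set 3 below 0 on days 1 and 3. Day 4 gave -0.15, -0.24, 0.06 and 1.52, and day 5 gave 2.75, 0.22, -0.59 and 2.13. Over the 24 arrays 17 lay above 0, with a mean of 0.52 ± 0.95 (SD, n = 24).

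SBT3.12 had low ratios. They were -2.29, -0.09, -0.08 and -0.41 in sets 1 to 4 on day 0, and -0.55, -0.54, -0.55 and -0.61 on day 1. Day 2 gave -0.89, -1.66, -1.41 and -0.45, and day 3 gave -0.34, -0.19, -1.29 and -0.61. Set 1 stood apart on day 0, while the sets were nearly equal on day 1. Day 4 gave -1.30, -0.79, -0.38 and -0.12, and day 5 gave -0.73, -0.68, -1.20 and -0.35. All 24 lay below 0, from -2.29 to -0.08, with a mean of -0.73 ± 0.55 (SD, n = 24).

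SBT5.4, whose overexpression in Arabidopsis gives broadened, fasciated stems like those of clavata mutants, lay on both sides of 0. Its ratios were 1.82, 0.20, 0.09 and 0.10 in sets 1 to 4 on day 0, and 0.54, 0.70, -0.52 and 0.63 on day 1. Day 2 gave -2.11, -0.07, 0.39 and -0.70, and day 3 gave 0.33, -1.66, -0.36 and -0.62. The highest and the lowest of its 24 values were both of set 1, on days 0 and 2. Day 4 gave -0.09, -0.05, 0.02 and -0.11, and day 5 gave 1.07, 0.20, -0.20 and -1.04. The mean was -0.06 ± 0.82 (SD, n = 24) with 12 arrays above 0, and it was 0.10 when each array was centred, so this gene has no settled sign.

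**Figure D1:**
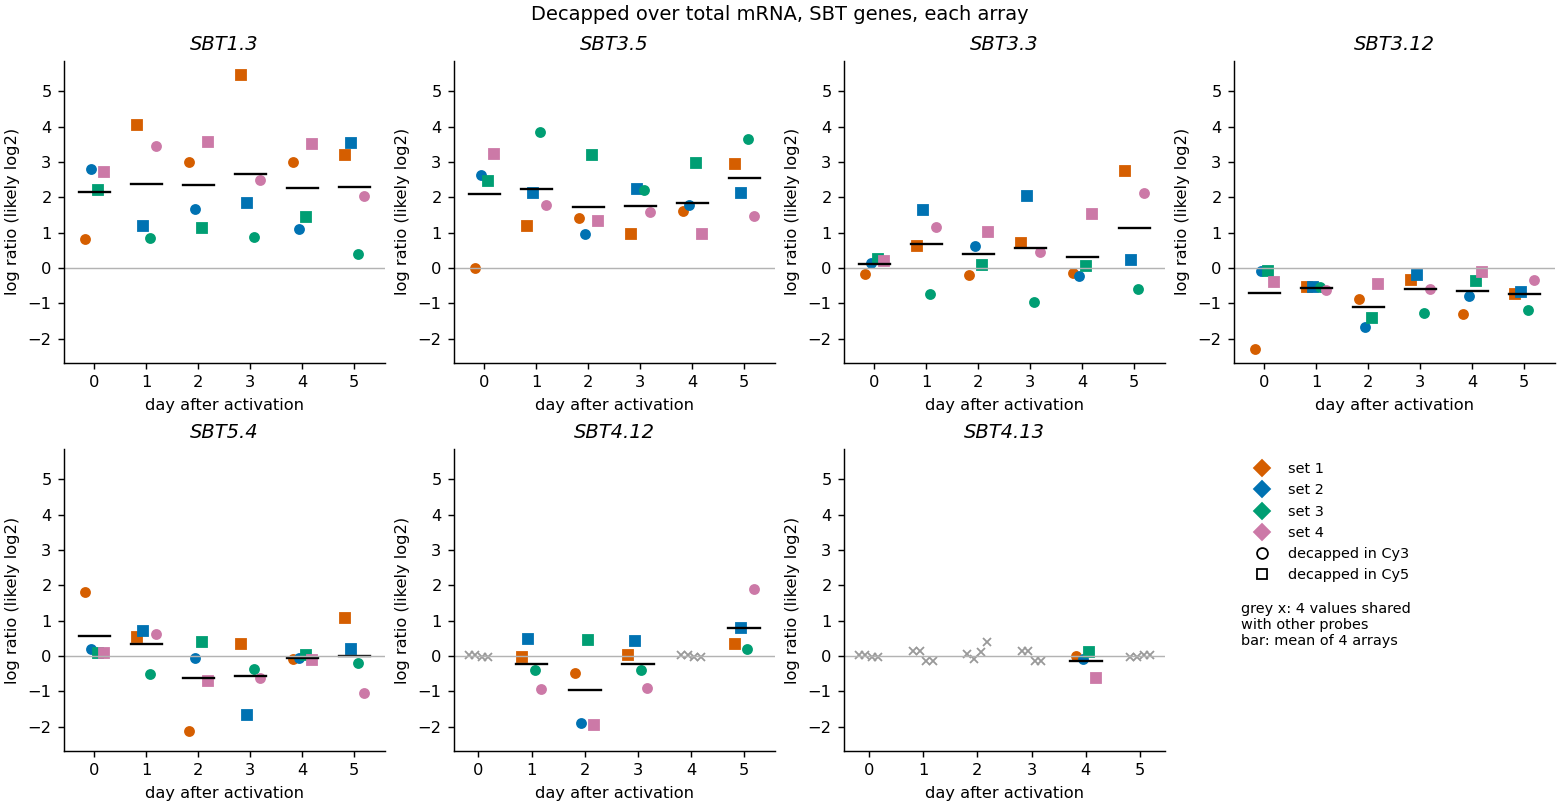
Log ratio (y axis, likely log2, likely decapped over total mRNA) of each of the 7 SBT genes on each array by day after activation (x axis); colour is the set, the symbol is the dye of the decapped mRNA, bars are means of 4 arrays and grey crosses are values shared with other probes. SBT1.3 and SBT3.5 lie above 0 and SBT3.12 below 0 on all 24 arrays, while SBT4.12 and SBT4.13 have values of their own on 4 days and 1 day.

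SBT4.12 and SBT4.13, which together with SBT5.2 are known to cut the precursor of the abscission peptide IDA, were measured in part. On each day many probes carried the same 4 values, and the most common such set (4424 probes on day 0, 1857 on day 4) was read as no measurement. SBT4.12 held that shared set on days 0 and 4 and values of its own on days 1, 2, 3 and 5. They were -0.03, 0.48, -0.40 and -0.94 in sets 1 to 4 on day 1, and 0.03, 0.41, -0.41 and -0.92 on day 3. Day 2 gave -0.48, -1.91, 0.46 and -1.94, and day 5 gave 0.34, 0.78, 0.21 and 1.89. The 4 arrays of day 5 all lay above 0, and those of days 1 and 3 were nearly the same. The day means were -0.22, -0.97, -0.22 and 0.80 on days 1, 2, 3 and 5. The largest difference, day 5 minus day 2, was 1.77 with p = 0.0857, adjusted 0.171 over the 6 pairs of days (two-sided exact permutation test, 4 against 4 arrays, smallest possible p 0.0286). This test was added after the values were seen, and it does not pair the arrays by set. SBT4.13 shared its values with other probes on 5 days and had values of its own only on day 4, at -0.01, -0.09, 0.13 and -0.61. The 5 genes measured on all days never shared their 4 values of a day with another probe.

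The order of the means was SBT1.3, SBT3.5, SBT3.3, SBT5.4 and SBT3.12. The first places turned without set 1 (SBT3.5 2.25, SBT1.3 2.04) and without the 3 arrays of low correlation (SBT3.5 2.16, SBT1.3 2.08), so these genes have no settled order between them. By array they traded places, with SBT1.3 higher on 14 and SBT3.5 on 10 of the 24 arrays. SBT3.5 was above SBT3.3 on 22 arrays, SBT3.3 was above SBT5.4 on 16, and SBT3.12 was above SBT5.4 on 5. In the RefSeq order of genes (TAIR10.1), SBT3.5 and SBT3.3 lie on chromosome 1 with 1 protein-coding gene between them, and their mean ratios were 2.02 and 0.52. SBT4.12 and SBT4.13 lie on chromosome 5 with 3 protein-coding genes between them. Above 0 on all 24 arrays were 2 of the 5 genes, against 7.23% of all tested genes. Below 0 on all 24 was 1 of the 5, against 12.4%. Nothing is read from these counts, since high means led to the choice of these genes. The median of the 5 means was 0.52, against -0.16 for all genes tested. The gene spans of the 5 were 2890 to 3934 bp, and the 1801 tested genes with a span in that range had a median mean ratio of 0.01, of which 19 (1.05%) had a mean of at least 2.

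The 6 days ask whether the ratio of a transcript changed as flowers formed. Of the 5 SBT genes measured on all days 0 passed a limma test for such a change. The day means of SBT1.3 lay between 2.14 on day 0 and 2.66 on day 3, and those of SBT3.5 between 1.72 on day 2 and 2.54 on day 5. SBT3.12 ranged from -1.10 on day 2 to -0.56 on day 1. Of SBT3.3 the day mean was 0.10 ± 0.18 (SD, n = 4) on day 0 and 1.13 ± 1.57 on day 5, so that its arrays of day 5 spread around those of day 0.

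Day 5 minus day 0 was 0.14 for SBT1.3 (95% interval -1.69 to 1.97) and 0.46 for SBT3.5 (-0.99 to 1.91). It was 1.03 for SBT3.3 (-0.26 to 2.31), -0.02 for SBT3.12 (-0.83 to 0.79) and -0.55 for SBT5.4 (-1.67 to 0.58). The adjusted p was 0.999 for each of the 5 genes (limma). The intervals are unadjusted, and their width shows how large a change this fit leaves unseen. The fit has no set term, so the width holds the spread between sets as well as that of 4 arrays a day. Day 5 minus day 0 of SBT3.3 was 0.35 without set 4, and 0.60 without the array of set 1 on day 5.

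Over all 25 differences from day 0 (5 genes, 5 days), the smallest unadjusted p were those of SBT5.4 on days 2 and 3. Its day 0 mean was 0.55 ± 0.85 (SD, n = 4), against -0.62 ± 1.09 for day 2 and -0.58 ± 0.83 for day 3, with overlapping arrays. The differences from day 0 were -1.18 ± 0.54 (SE) and -1.13 ± 0.54, with unadjusted p of 0.0414 and 0.0488 and adjusted p of 1.00 and 0.975 in limma. Without the array of set 1 on day 0 (1.82) they were -0.68 and -0.64, and without all arrays of set 1 the day 2 difference was -0.26. Without the array of set 1 on day 2 that difference was -0.70, and without the array of set 2 on day 3 the day 3 difference was -0.70.

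In limma 0 of the 5 SBT genes passed the F test over the 6 days, against 0.0% of all tested genes (142 genes at an unadjusted p under 0.05, and 0 of the 5). The same 0 of 5 and 0.0% were found for each of the 5 differences from day 0, with 197, 209, 507, 192 and 330 genes unadjusted on days 1 to 5. Over all genes the day 3 count was not stable, since 111 genes (5 higher, 106 lower) passed without set 1, and with set as a fixed block 4 genes passed on day 3 and 1 on day 5. For the slope per day, 0 of the 5 genes and 0.0% of all tested genes passed too, with 234 genes unadjusted. The smallest unadjusted p of an SBT gene was 0.222 in the F test (SBT5.4) and 0.241 for the slope (SBT5.4).

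**Figure D2:**
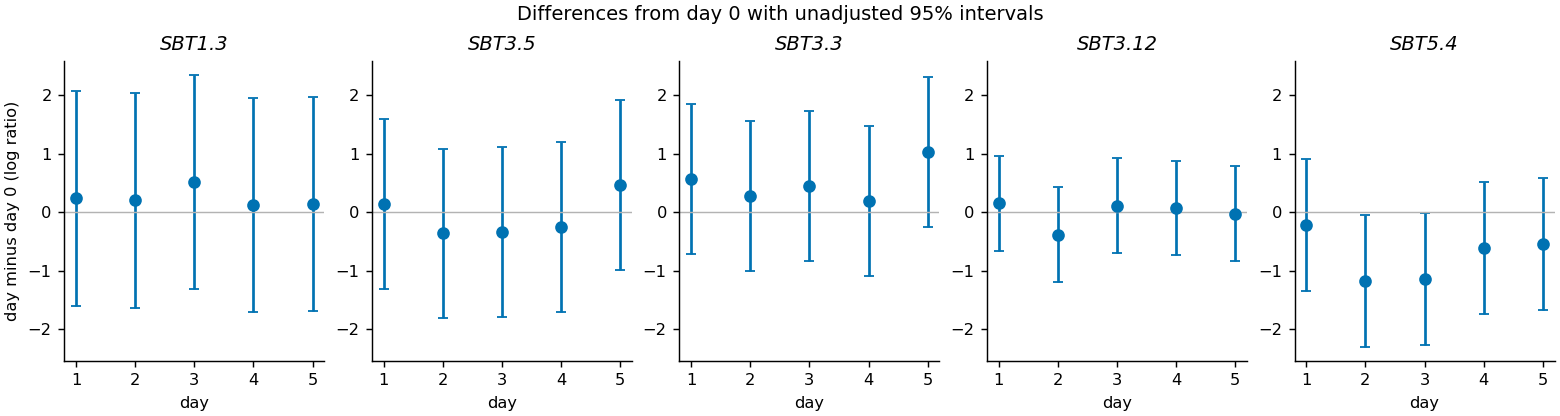
Difference of the day mean from day 0 (y axis, log ratio, likely log2) for days 1 to 5 (x axis) of the 5 SBT genes measured on all days; points are estimates from the fit over 24 arrays and bars are unadjusted 95% intervals. All intervals include 0 except those of SBT5.4 on day 2 (-2.30 to -0.05) and day 3 (-2.26 to -0.01).

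In the reported fit SBT1.3 and SBT3.5 differed among the 4 independent sets, which the design treats as replicates. Both calls were often lost when 1 set or array was left out, as given below. Set means of SBT1.3 over the 6 days were 3.25 ± 1.52 in set 1, 2.02 ± 0.96 in set 2, 1.15 ± 0.62 in set 3 and 2.96 ± 0.64 in set 4 (SD, n = 6). Those of SBT3.5 were 1.35 ± 0.96, 1.98 ± 0.56, 3.05 ± 0.64 and 1.72 ± 0.78. Set 3 was thus the lowest for SBT1.3 and the highest for SBT3.5. The limma F test over sets passed for 2 of the 5 genes, SBT1.3 (adjusted p = 0.0346) and SBT3.5 (adjusted p = 0.0459), against 15.4% of all tested genes. The other 3 did not pass, with adjusted p of 0.0885 for SBT3.3, 0.440 for SBT3.12 and 0.770 for SBT5.4 in limma.

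Of the spread of SBT1.3 over the 24 arrays 45% lay between sets and 1.69% between days, and of SBT3.5 46% and 9.98%. For the median gene of all tested these shares were 23.6% and 13.5%. SBT5.4 had the reverse order, with 6.13% between sets and 28.9% between days. These shares are not adjusted for the number of groups. Since there are more days than sets, chance alone gives days the larger share. The order of SBT5.4 is therefore not read as a change over days, and its unadjusted p in the limma F test over days was 0.222. SBT3.3 had 30.9% and 12.3%, with set means of 0.59, 0.73, -0.32 and 1.08, and SBT3.12 had 16.5% and 11%.

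Both calls over sets were close to the adjusted threshold. When 1 set or 1 array was left out, the call of SBT1.3 was lost in 15 of 28 fits (adjusted p up to 0.336, without set 3) and that of SBT3.5 in 23 of 28 (up to 0.613, without set 3). Over the 24 limma fits without 1 array the unadjusted p ranged from 0.000199 to 0.0131 for SBT1.3 and from 0.00096 to 0.0308 for SBT3.5, while the genes called in the whole table ranged from 925 to 3585. Without the 3 arrays of low correlation (set 1 on days 1, 2 and 3), an alternative chosen after seeing the data, 0 of the 5 genes passed, with adjusted p of 0.107 for SBT1.3 and 0.144 for SBT3.5, and the genes that passed in the whole table fell from 1634 to 381. Without the array of set 1 on day 0, which the weights place lowest, both passed (0.00385 and 0.0279), and 3585 genes of the whole table did. Each set has 3 days in each dye, and set 3 was lowest for SBT1.3 and highest for SBT3.5 in both. Within a dye the days of sets 1 and 2 differ from those of sets 3 and 4, so this comparison mixes set and day. SBT1.3 had means of 2.27, 1.86, 0.70 and 2.66 in sets 1 to 4 with decapped mRNA in Cy3, and 4.23, 2.18, 1.60 and 3.26 with it in Cy5 (n = 3 days each). SBT3.5 had 1.01, 1.79, 3.23 and 1.60 in Cy3 and 1.70, 2.16, 2.87 and 1.84 in Cy5. The labels do not say in what the sets differed, so plants, extraction and arrays cannot be told apart.

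**Figure D3:**
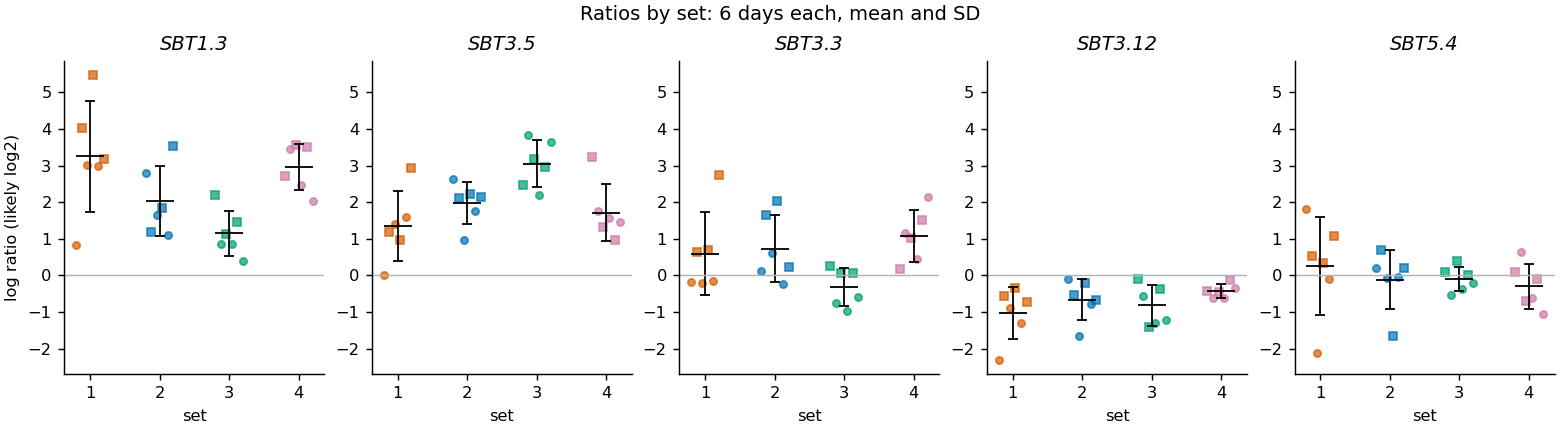
Log ratio (y axis, likely log2) of the 5 SBT genes measured on all days in each set (x axis); points are the 6 days of a set (circle: decapped mRNA in Cy3, square: in Cy5), and the bars are the mean and SD. Set 3 is lowest for SBT1.3 (1.15) and highest for SBT3.5 (3.05).

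Set against each other, SBT1.3 and SBT3.5 went opposite ways across sets. SBT1.3 had the higher ratio on 6 of 6 days in set 1, on 3 in set 2, on 0 in set 3 and on 5 in set 4. The difference SBT1.3 minus SBT3.5 averaged 1.90 ± 1.54 in set 1, 0.04 ± 0.88 in set 2, -1.90 ± 1.11 in set 3 and 1.24 ± 1.13 in set 4 (SD, n = 6). This contrast was noticed in the data and was not tested. Over the 24 arrays the Pearson correlation of both genes was -0.38 and the Spearman correlation -0.43. It was -0.53 without the 2 arrays farthest from the median of SBT3.5, and -0.58 without the array of set 1 on day 0, where both were low. The arrays share sets, dyes and normalization, so these values are descriptions. SBT3.5 and its chromosomal neighbour SBT3.3 also had a negative correlation (-0.20), and SBT1.3 correlated positively with SBT3.3 (0.37) and SBT3.12 (0.45).

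**Figure D4:**
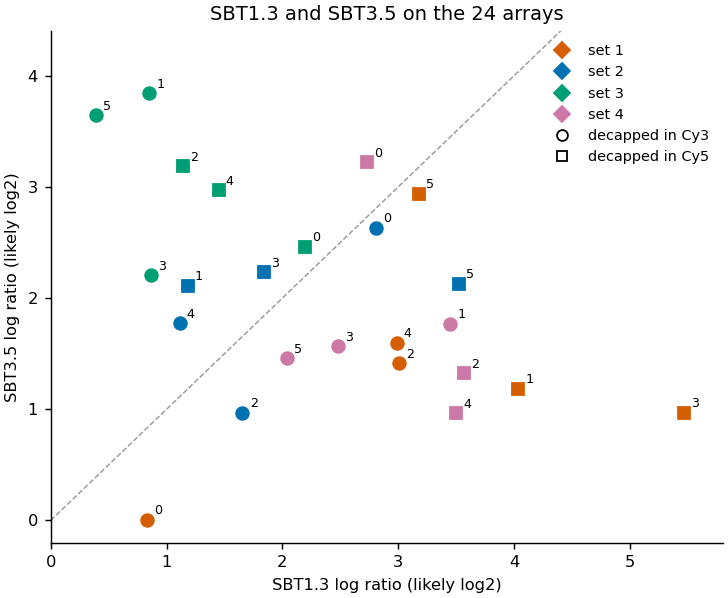
Log ratio of SBT1.3 (x axis) and SBT3.5 (y axis, both likely log2) on the 24 arrays; colour is the set, the symbol is the dye of the decapped mRNA, the number is the day and the dashed line marks equal ratios. The 6 arrays of set 3 lie above the line and the 6 of set 1 below it.

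The dye of the decapped mRNA was examined as a technical part of the spread. SBT3.3 lay above 0 on 12 of 12 arrays with decapped mRNA in Cy5 and on 5 of 12 with it in Cy3, with means of 0.92 ± 0.88 and 0.12 ± 0.87 (SD, n = 12). SBT1.3 had 2.82 ± 1.31 and 1.87 ± 1.06, and SBT3.12 had -0.49 ± 0.35 and -0.97 ± 0.61. SBT3.5, at 2.14 ± 0.85 and 1.91 ± 1.07, lay above 0 on all arrays of both. The dye term passed for 0 of the 5 genes in limma, against 0.698% of all tested genes. At an unadjusted p under 0.05 it held for SBT3.3 (Cy5 minus Cy3 0.81 ± 0.36, SE; adjusted p = 0.635) and SBT3.12 (0.48 ± 0.22; adjusted p = 0.689). Each day holds both orientations equally, so the dye cancels in the day means.

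The genes whose ratios were most like those of an SBT gene over the 24 arrays were taken from 1264 tested genes with a symbol. For SBT1.3 they were MOB1-like (r = 0.88) and DECOY (r = 0.87), and for SBT3.5 ARA6, a Rab GTPase of endosomes (r = 0.87), and MAB1 (r = 0.82). For SBT3.3 they were UGT72B3, a glycosyltransferase gene (r = 0.77), and WRKY47, a transcription factor gene (r = 0.66). SBT3.12 was nearest to LCR (r = 0.73) and SETH2 (r = 0.70), and SBT5.4 to GLR2.8, a glutamate receptor-like channel gene (r = 0.61), and TBL34 (r = 0.59). These are the highest of many correlations on arrays that share sets and dyes. They describe likeness of pattern, not of mean.

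Other subtilases lay in the same range as the SBT genes. RefSeq and the array annotation named 13 outside the rule and 4 were measured. SBTI1.1, whose enzyme cuts a phytosulfokine precursor, averaged 1.57 ± 1.58 (SD, n = 24) and ATSBT5.2, whose enzyme cuts a stomatal patterning peptide precursor, had 1.02 ± 0.75. ARA12, an enzyme needed for the release of seed coat mucilage, had 0.28 ± 0.50 and TPP2, a tripeptidyl peptidase, -0.28 ± 0.55. By limma 3 of these 4 were higher than 0 (adjusted p under 0.05) and 0 lower, against 29.7% and 43.5% of all tested genes, and their median was 0.65. The split over all genes depends on the centring, which is unknown, and was 37.4% higher and 38.3% lower with each array centred. With set as a random block 2 of the 4 were higher. ATSBT5.2 passed the F test over sets (adjusted p = 0.0403, limma) with set means of 0.27, 1.19, 1.73 and 0.88, and set 3 was the highest for it as for SBT3.5.

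Another list held 75 genes for possible substrates of plant subtilases and for peptide receptors. Peptide families such as CLE were entered by name, and whether each member is cut was not checked. Of the 75 genes 8 were measured, with a median of 0.13. By limma 3 were higher and 2 lower, against 29.7% and 43.5% of all tested genes. PSY1R, the receptor kinase for the sulfated peptide PSY1, was highest (2.08 ± 0.96, SD, n = 24), and CLE27, a gene for a CLE signal peptide, lowest (-2.50 ± 0.90). BZIP28 (0.23 ± 0.55), a membrane-bound transcription factor that a subtilase releases in the Golgi, and FER (0.04 ± 0.70), a receptor for RALF peptides, stood near the list's median. Over sets 3 of the 8 passed, against 15.4% of all tested genes. They were PSY1R, CLE27 and GSO1, a receptor kinase for sulfated peptides of the embryo and root, the last named after its values were seen. In the other lists 1 of 4 other subtilases, 7 of 31 proteases of other families and 1 of 2 protease inhibitor genes passed over sets.

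Proteases of other families had 31 measured of 134 listed genes, with a median of 0.34. By limma 17 were higher and 8 lower, against the same 29.7% and 43.5% of all tested genes. UBP21, a ubiquitin-specific protease gene, was highest (2.10 ± 0.48) and scpl20, a serine carboxypeptidase-like gene, lowest (-1.48 ± 1.66), with UBP24 (0.34 ± 0.63) and scpl29 (0.32 ± 0.43) near the median. Both measured protease inhibitor genes of 8 were lower, CYS1, a cystatin against cysteine proteases, at -2.15 ± 0.92 and SERPIN1 at -0.59 ± 0.58. Of the 45 genes of the 4 lists 0 passed the limma F test over days, and 2 had an unadjusted p under 0.05, SERPIN1 and MMP, a matrix metalloprotease gene. The counts of higher and lower genes take the arrays as independent. From set means alone they were 2 and 0, 2 and 1, 12 and 6, and 0 and 2 for the 4 lists. Of all tested genes 21.1% were higher and 35% lower from set means. Whether the SBT genes differ from these lists was not tested.

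**Figure D5:**
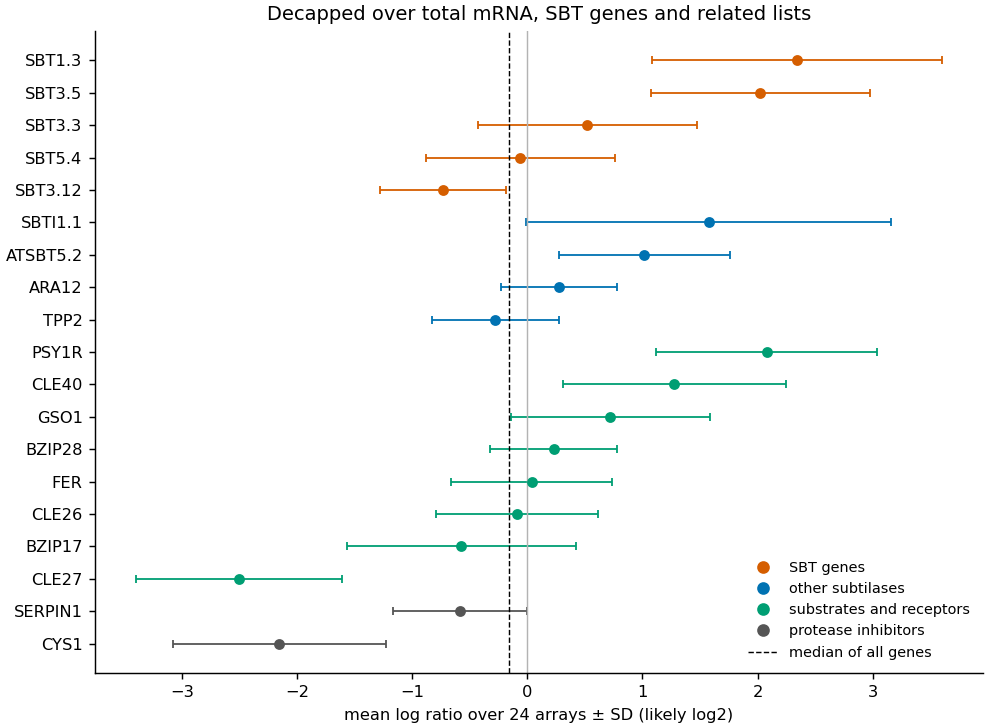
Mean log ratio over 24 arrays with SD (x axis, likely log2, likely decapped over total mRNA) of the 5 SBT genes, 4 other subtilases, 8 possible substrates and receptors and 2 protease inhibitor genes (y axis). The dashed line is the median of all tested genes (-0.16). SBT1.3 (2.35) is the highest and CLE27 (-2.50) the lowest of those shown.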

How the data were processed

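The authors deposited 1 table of 26102 probes on 24 arrays, whose values (-10.5 to 10.1) were read here as log2 ratios of both channels. How they corrected background and normalized is not given in the sources used here. The table gives no spot intensities, so a filter on dim probes could not be tried, and the number of arrays limits the precision. All 24 columns matched a sample. The members and lists were chosen with earlier results of these data known.

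The platform annotation paired 13960 probes with 1 gene, of which 13912 matched RefSeq (TAIR10.1). On each day the most common set of 4 identical values (770 to 4424 probes) was read as no measurement, probes of a gene were averaged, and a gene needed 2 values on each day. Synonyms starting with ATSBT were counted as subtilases, which was settled after the tables were seen.

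Ratios were fitted with limma 3.58.1 in R 4.3.3 over 24 arrays with a mean per day and a dye term, and for sets also a set term. P-values are two-sided with Benjamini-Hochberg adjustment over 10608 genes at a threshold of 0.05, with the arrays taken as independent. Named genes are all members. In each list the highest, the lowest and the 2 nearest its median are named, and likeness is Pearson's r. Python 3.11.15, pandas 2.3.3, numpy 2.4.6 and scipy 1.17.1 were used. The fits were tested on simulated data whose arrays were independent, so that test does not cover deviations shared within a set.

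Set numbers were checked for pairing: the deviations from the day means correlated above 0.1 in 48 of 60 pairs of arrays of the same set (median 0.28, from -0.19 to 0.70), and in 21 of 180 pairs of other sets (median -0.09). Arrays of a set thus deviated together, though not in every pair. The reported fit still has no block, since the labels do not say whether a set number marks a shared batch. P-values that take arrays as independent leave out this shared part. Alternatives were centring, scaling, other treatments of shared values, set as a block, set means, array weights, no dye term, 2 days only, and leaving out sets, single arrays and, chosen after seeing the data, the 3 arrays with a median correlation under 0.5.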

Additional observations from a re-analysis of the deposited data

Results flagged for a closer look

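Among 35 groups of 4 arrays (1 SBT gene on 1 day), 5 held an array far from the other 3, and chance flags about 1 in 20 such groups. SBT3.12 was at -2.29 and SBT5.4 at 1.82 on the array of set 1 on day 0. SBT3.12 was at -0.61 in set 4 on day 1, where the other sets lay between -0.55 and -0.54, so the gap is small. SBT5.4 was at -0.52 in set 3 on day 1, and SBT3.3 was at 1.52 in set 4 on day 4.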

How the results depend on the processing

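The median of the 5 SBT means (0.52) lay between 0.52 and 0.68 under the other settings, and between 0.34 and 0.80 when sets or arrays were left out. SBT1.3, SBT3.5 and SBT3.3 stayed above 0 and SBT3.12 below 0 under all alternatives run, while SBT5.4 changed sign with centring (0.10), scaling (0.05), without set 4 (0.02), without the array of set 1 on day 2 (0.02) and without that of set 2 on day 3 (0.01). Calls over days stayed at 0 for the 5 genes in all alternatives, with adjusted p of at least 0.255 for differences from day 0, 0.839 for the F test and 0.898 for the slope (limma). With set number as a replicate block, fixed or random, these counts were 0 as well, and the median mean was 0.52. Over all genes the F test called 0, or 1 without set 2, and the mean was called for 7759 genes, 6696 with the random block and 5957 from set means.

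The 2 genes called over sets became 1 with shared values kept and with array weights, and 0 without the 3 arrays of low correlation. Leaving out 1 set or array gave 0 to 3. The cause was not tested. SBT3.12 passed over sets with scaling (adjusted p = 0.0292, limma). Fitting single probes changes nothing for genes with 1 probe and was not run.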
